A study of Mus musculus with 18 samples.

Results

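Tenm4, Cdsn, Acox2 and Angptl6 are 4 genes, of 18397 in the gene table, selected on measured values, their strong rise on the stiff matrix. They were followed through all 6 groups of the study. Which of the 3 comparisons between the matrices was used for the choice is not stated, so all 3 count as used. The difference of the 4 genes between the matrices is therefore given below as a description, without a test. RNA was sequenced in 18 libraries labelled RAW264.7, the name of a mouse macrophage line, with 3 libraries per group. The Soft and Stiff groups were cells on a soft or a stiff matrix. In Soft+mito and Stiff+mito an addition labelled mito was given on the same matrices, and in Soft-TW and Stiff-TW a condition labelled TW. The labels give neither a stiffness value nor the meaning of mito and TW, and the series title concerns transfer of mitochondria in relation to stiffness. No genotype, dose or time is given for any group, so the groups differ, as far as the labels say, by matrix, mito and TW alone.

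The 4 genes come from unrelated families and are best known from different tissues. Tenm4 encodes teneurin-4, a large transmembrane protein that carries cell-cell contact signals through latrophilin receptors and is best known from the developing nervous system and from oligodendrocytes. It was first described, as Doc4, among genes switched on downstream of the stress factor Ddit3 (CHOP). Cdsn encodes corneodesmosin, an adhesive glycoprotein of the junctions that hold the outer layers of the epidermis together. Acox2 encodes a peroxisomal oxidase that shortens branched fatty acids and bile acid precursors, mainly in liver. Angptl6 encodes a secreted angiopoietin-like protein, also called angiopoietin-related growth factor, that is made largely in liver.

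Each library held between 16054637 and 16887244 estimated counts in all, with 10 or more counts in 11785 to 11909 genes. All 4 genes passed the filter on low counts that left 12245 genes for testing. Nothing in the labels says that the 3 libraries of a group came from separate cultures, so the p-values below describe the spread among these particular libraries, possibly only a technical one. That spread was small, with a common coefficient of variation beyond counting error of 0.0175 over the genes tested. The level unit is TPM, a share of all transcripts scaled for gene length and depth. The macrophage genes Csf1r (0.03 to 1.1 TPM), Adgre1 (0 to 0.14 TPM) and Ptprc (0 to 0.27 TPM) were low in all 18 libraries. Other macrophage markers were higher, with Cd14 at 20.05 to 34.25 TPM and Lyz2 at 5.07 to 30.84 TPM. Krt8 was at 430.91 to 730.46 TPM and Vim at 1412.94 to 4228.88 TPM. The libraries are therefore called by their group labels below, and not by a cell type. Of 15 macrophage markers, 2 had a mean of at least 10 TPM and 5 a mean under 0.1 TPM, and their summed level was 40.9 to 42.5 TPM in Soft, 49.95 to 54.4 in Soft+mito, 83.7 to 86.0 in Soft-TW, 33.2 to 37.9 in Stiff, 41.6 to 44.9 in Stiff+mito and 55.9 to 58.0 in Stiff-TW. The summed level of 9 fibroblast markers, led by Pdgfra, was 67.5 to 70.4 TPM in Soft, 60.8 to 64.4 in Soft+mito, 102 to 104 in Soft-TW, 85.2 to 86.3 in Stiff, 99.5 to 106 in Stiff+mito and 145 to 148 in Stiff-TW. For 8 simple epithelium markers, led by Krt8, it was 999 to 1029 TPM in Soft, 1031 to 1043 in Soft+mito, 764 to 783 in Soft-TW, 696 to 714 in Stiff, 733 to 759 in Stiff+mito and 671 to 682 in Stiff-TW. Of these 8, only 2 had a mean of at least 10 TPM, and 6 had a mean under 0.1 TPM. Of the 9 fibroblast markers, 2 had a mean of at least 10 TPM and 3 a mean under 0.1 TPM. All 3 sums moved with the groups, and their part in the results below was not tested. The markers listed for the tissues in which the 4 genes are best known had low sums. Keratinocyte markers (9 of 11 listed were in the table) summed to 0.07 to 0.79 TPM, 10 hepatocyte markers to 0.74 to 3.74 TPM, and 9 neural and oligodendrocyte markers, led by Tubb3, to 13.0 to 18.2 TPM.

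In the RefSeq annotation of GRCm38.p6, Tenm4 (gene 23966) lies on chromosome 7 from 96171244 to 96911093 on the plus strand, and 6 other annotated genes, among them Mir708, lie inside its 739850 bases. Cdsn (gene 386463) lies on chromosome 17 from 35543101 to 35557180 on the plus strand, and no other annotated gene overlaps it. Acox2 (gene 93732) lies on chromosome 14 from 8225511 to 8259019 on the minus strand, also without overlap. Angptl6 (gene 70726) lies on chromosome 9 from 20873808 to 20879822 on the minus strand, and its end overlaps Shfl on the other strand. Shfl was at 0 to 0.22 TPM in the 18 libraries, against 6.22 to 31.45 TPM for Angptl6. No source used here says if the counting used strand, so reads in the overlaps of Tenm4 and Angptl6 may not have been assigned by strand.

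Since the 4 genes moved together in much of what follows, the 250 bases before a start site of each are shown, from RefSeq with the build GRCm38.p6, 5′ to 3′ on the strand of the gene. Capitals mark matches, on either strand, to any of 7 motifs. The stress motif searched was the C/EBP-ATF response element, TGATGNAA. The AP-1 element was searched as TGANTCA, the TEAD element as GGAATG and the cyclic AMP response element as TGACGTCA. The core promoter motifs were the CCAAT box, with the letters of its name, and the TATA box, searched as TATAAA. The E-box was searched as CACGTG. Of the windows RefSeq start sites give, the one shown lies at the start of the gene for Tenm4. For Cdsn and Acox2 it lies next to the start of the transcript with most reads. Angptl6 has a single window, whose start site, 20879710, lies inside the annotated gene. That site is near the start of the curated transcript, 20879727, which held 16.1% of the gene's estimated counts. The start of the predicted transcript that held 83.1% was not examined.
Tenm4, chr7:96170994-96171243, plus strand: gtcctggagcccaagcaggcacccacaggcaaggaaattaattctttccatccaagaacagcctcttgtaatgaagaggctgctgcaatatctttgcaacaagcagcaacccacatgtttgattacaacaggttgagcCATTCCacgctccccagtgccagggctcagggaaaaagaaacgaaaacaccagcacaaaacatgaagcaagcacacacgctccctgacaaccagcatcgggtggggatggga
Cdsn, chr17:35551878-35552127, plus strand: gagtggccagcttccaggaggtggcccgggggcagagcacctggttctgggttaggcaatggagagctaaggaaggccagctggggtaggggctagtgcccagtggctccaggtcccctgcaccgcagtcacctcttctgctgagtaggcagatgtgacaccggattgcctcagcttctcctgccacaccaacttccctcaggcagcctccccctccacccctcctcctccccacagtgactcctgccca
Acox2, chr14:8258840-8259089, minus strand: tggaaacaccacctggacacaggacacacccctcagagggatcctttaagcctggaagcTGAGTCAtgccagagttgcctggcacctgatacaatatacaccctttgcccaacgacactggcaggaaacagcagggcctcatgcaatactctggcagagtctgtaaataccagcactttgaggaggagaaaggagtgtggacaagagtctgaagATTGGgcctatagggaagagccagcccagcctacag
Angptl6, chr9:20879711-20879960, minus strand: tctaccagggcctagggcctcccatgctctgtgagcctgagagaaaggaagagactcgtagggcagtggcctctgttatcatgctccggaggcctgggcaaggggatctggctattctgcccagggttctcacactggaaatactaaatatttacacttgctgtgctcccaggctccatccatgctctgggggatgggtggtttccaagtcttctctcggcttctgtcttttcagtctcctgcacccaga
The Acox2 window holds an AP-1 match from -191 to -185 relative to its start site and, on the opposite strand, a CCAAT match from -36 to -32. The Tenm4 window holds a TEAD match on the opposite strand from -112 to -107. No motif of the 7 was in the windows of Cdsn and Angptl6, and no window of the 4 genes held the C/EBP-ATF element, an element known for binding Ddit3 and Atf4 with C/EBP partners. Of 32851 promoter windows of the same length, 6.75% hold the AP-1 element, 33.8% the CCAAT box, 12.6% the TEAD element, 3.45% the C/EBP-ATF element, 1.55% the cyclic AMP response element, 6.02% the E-box and 12.4% the TATA box. A match is a description of letters, and no match says only that these letters are not in the window.

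Tenm4 was at its highest in Stiff, with 10.82, 10.50 and 10.77 TPM in the 3 libraries. In Soft it was at 1.52, 1.19 and 1.51 TPM. Every Stiff library thus stood well above the Soft libraries, with a fitted fold of 8.08. With mito the levels were 0.58, 0.70 and 0.66 TPM in Soft+mito and 7.56, 7.74 and 7.33 TPM in Stiff+mito. The fitted fold between these groups was 11.2. In the TW groups there was no such gap, with 2.03, 1.78 and 1.98 TPM in Soft-TW and 1.77, 1.5 and 1.69 TPM in Stiff-TW. From lowest to highest the mean levels ran Soft+mito, Soft, Stiff-TW, Soft-TW, Stiff+mito and Stiff, and of the neighbours in this order only the libraries of Soft and Stiff-TW overlapped. In bulk RNA, fewer cells that make a transcript and less of it per cell cannot be told apart.

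Cdsn was the most abundant of the 4 genes, with 102.91, 96.28 and 102.83 TPM in Stiff and 25.21, 24.61 and 23.68 TPM in Soft. The Stiff libraries all lay above the Soft libraries, with a fitted fold of 4.36. Soft+mito held 12.22, 10.04 and 10.34 TPM, the lowest levels of the gene, and Stiff+mito 76.67, 74.34 and 79.03 TPM. In the TW groups Cdsn was at 40.70, 38.06 and 41.58 TPM on the soft matrix and at 41.54, 40.36 and 41.20 TPM on the stiff matrix. These last groups overlapped, and they lay between the levels of Soft and Stiff without TW. These levels of a gene of the cornified layer stood beside keratinocyte markers whose sum was at most 0.79 TPM in any library. Outside that marker list, group means of the cornified envelope gene Sprr1a ran from 17.1 TPM in Stiff to 112 in Soft-TW. Those of Jup ran from 17.6 TPM in Stiff to 26.4 in Soft. Of 37 corneodesmosome and cornified envelope genes listed, 10 passed the filter on low counts.

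Acox2 was at 10.86, 9.93 and 11.08 TPM in Stiff and at 2.53, 2.01 and 2.16 TPM in Soft. With mito it was at 7.17, 7.35 and 6.22 TPM on the stiff matrix and at 1.32, 1.31 and 1.26 TPM on the soft matrix. The TW groups were low on both matrices and overlapped, with 1.82, 1.14 and 1.64 TPM in Soft-TW and 1.33, 1.43 and 1.59 TPM in Stiff-TW. Acox2 alone of the 4 genes was lower in both TW groups than in Soft. It is also the gene with the fewest reads, with 26 to 42 estimated counts per library in Soft-TW and 30 to 37 in Stiff-TW, so its values there carry the widest counting error.

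Angptl6 was at 31.28, 31.45 and 30.13 TPM in Stiff and at 10.87, 11.21 and 10.42 TPM in Soft. The fitted fold of 3.02 was the smallest of the 4 genes between these groups. Soft+mito was again lowest, at 6.52, 6.46 and 6.22 TPM, while Stiff+mito held 26.17, 25.98 and 24.30 TPM. The TW groups held 19.58, 21.10 and 22.68 TPM on the soft matrix and 21, 24.73 and 22.77 TPM on the stiff matrix. Soft-TW, Stiff-TW and Stiff+mito followed each other in the order of the means, with overlapping libraries at each step, and the Stiff libraries lay above all of them.

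**Figure D1:**
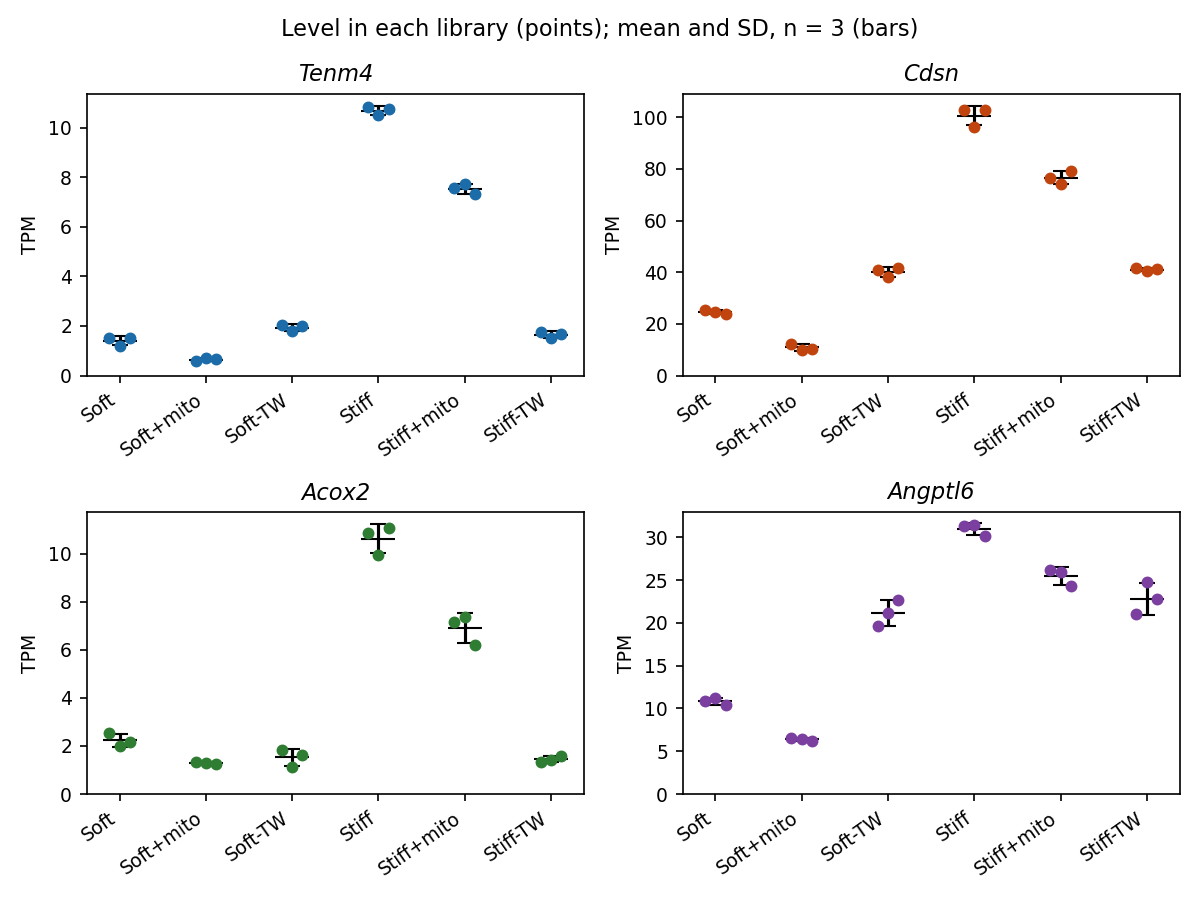
TPM of Tenm4, Cdsn, Acox2 and Angptl6, one panel per gene with its own axis, in the 6 groups. Points are the 3 libraries of a group, with their mean and SD as bars. The mean of every gene is highest in Stiff and lowest in Soft+mito, where the Acox2 libraries overlap those of Soft-TW.

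The difference between Stiff and Soft, a contrast counted as used for the choice, was 3.01 on the log2 scale for Tenm4, 2.12 for Cdsn, 2.33 for Acox2 and 1.60 for Angptl6. By this difference they ranked 4, 21, 16 and 61 among the 12245 genes tested, of which 29.1% were called higher in Stiff at an adjusted p under 0.05 and 59.3% had groups without overlap, as the 4 genes had. With mito on both matrices the difference was 3.48, 2.81, 2.39 and 1.99 in the same order. With TW on both it was -0.19 for Tenm4, 0.05 for Cdsn, -0.06 for Acox2 and 0.13 for Angptl6. Only for Tenm4 did the TW libraries not overlap, with all 3 of Stiff-TW below those of Soft-TW, beside 59.3% of all genes without overlap in that comparison. Leaving out Soft-TW replicate 1 turned the Acox2 value to 0.085. The shift in the matrix difference from the groups without an addition to those with TW was -3.20 for Tenm4, -2.07 for Cdsn, -2.39 for Acox2 and -1.46 for Angptl6. With mito it was 0.47, 0.69, 0.06 and 0.40. No p is given for these shifts, since they contain contrasts counted as used for the choice.

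Other genes that rose on the stiff matrix set the scale for this pattern. Among the 172 genes called at least 2-fold higher in Stiff than in Soft, the median log2 difference between the matrices was 1.33 alone, 1.498 with mito and 0.47 with TW. In the TW groups, 78 of them (45.3%) lay within 0.5 of no difference, as all 4 genes did, and 34 (19.8%) still differed by at least 2-fold in the same direction. With mito, 137 (79.7%) were at least 2-fold higher on the stiff matrix. The 4 genes belong to the 172.

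**Figure D2:**
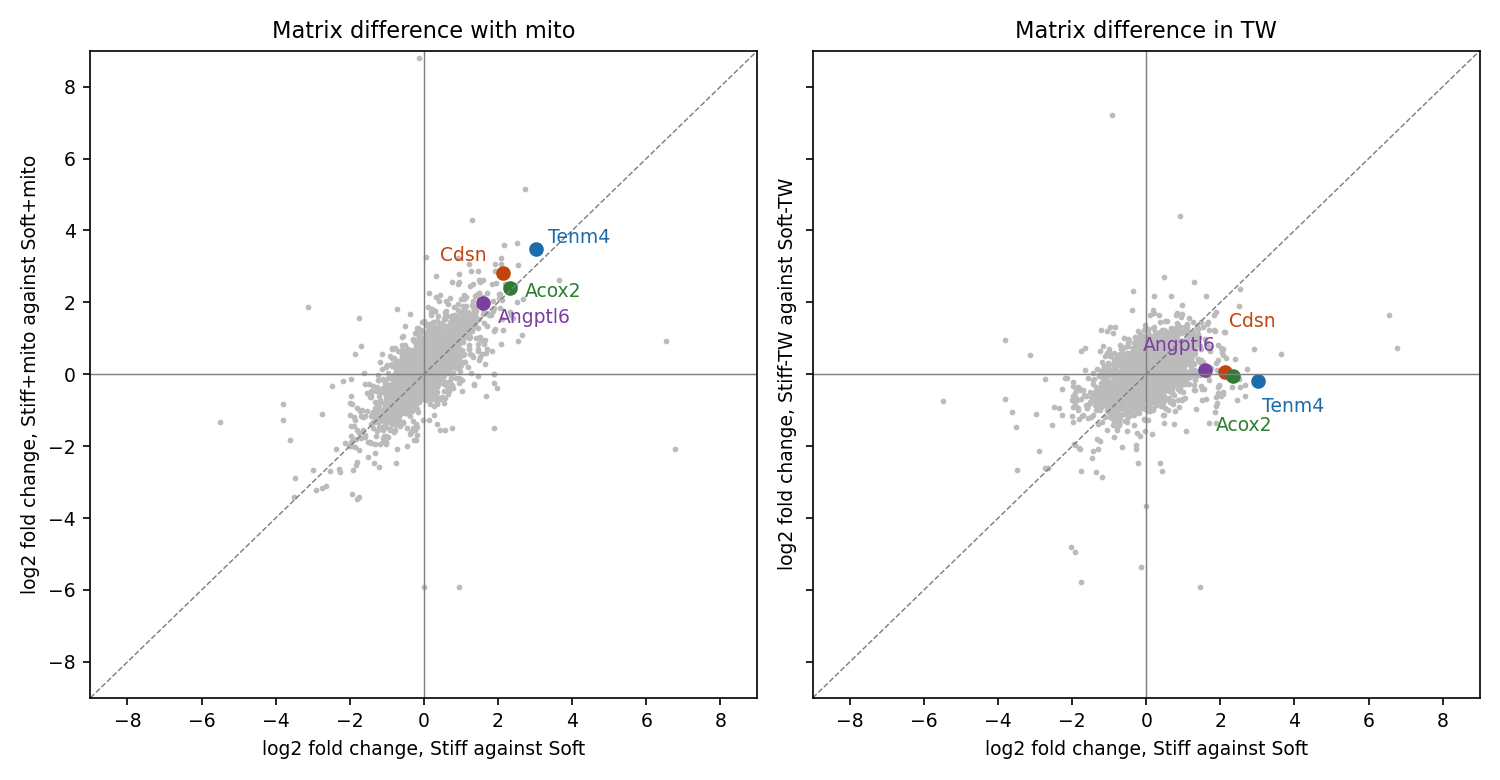
Log2 fold change of Stiff against Soft (horizontal) against the same difference between the matrices with mito or with TW (vertical), for 12245 genes in grey and the 4 named genes in colour. The dashed line marks equal differences, and the 4 genes lie near 0 on the vertical axis with TW.

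Mito lowered all 4 genes on both matrices. In Soft+mito against Soft, Tenm4 fell to 0.647 ± 0.0611 TPM (SD, n = 3) from 1.41 ± 0.188, Cdsn to 10.9 ± 1.18 from 24.5 ± 0.771, Acox2 to 1.30 ± 0.0321 from 2.23 ± 0.268 and Angptl6 to 6.40 ± 0.159 from 10.8 ± 0.396. The log2 fold changes by edgeR's quasi-likelihood test were -0.98 ± 0.104 (approximate SE) for Tenm4 (adjusted p = 1.01e-13), -1.08 ± 0.0614 for Cdsn (adjusted p = 2.63e-30), -0.68 ± 0.185 for Acox2 (adjusted p = 0.00282) and -0.68 ± 0.108 for Angptl6 (adjusted p = 1.79e-07). All 4 passed the test and their libraries did not overlap, where 11.9% of all genes tested were called lower and 41.6% had groups without overlap. Mito and TW comparisons share their libraries with the contrasts counted as used for the choice of the genes. A choice on Stiff against Soft favours a rise against Soft and a fall against Stiff.

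In Stiff+mito against Stiff all 4 genes were also lower. Tenm4 went to 7.54 ± 0.206 TPM (SD, n = 3) from 10.7 ± 0.172, a log2 fold change of -0.52 ± 0.0396 (edgeR adjusted p = 2.11e-21), and Cdsn to 76.7 ± 2.35 TPM from 101 ± 3.80, of -0.39 ± 0.0317 (adjusted p = 7.67e-20). Acox2 went to 6.91 ± 0.607 from 10.6 ± 0.610 TPM, with a log2 fold change of -0.62 ± 0.0943 (adjusted p = 4.55e-08), and Angptl6 to 25.5 ± 1.03 from 31.0 ± 0.718 TPM, of -0.28 ± 0.0650 (adjusted p = 0.000239). All 4 passed and no libraries overlapped, beside 17.8% of all genes called lower and 41.1% without overlap. Over all genes tested, 623 (5.09%) were called lower with mito on both matrices, the 4 genes among them (410 by DESeq2), and of the 172 genes raised at least 2-fold on the stiff matrix 32 (18.6%) were.

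TW moved Tenm4, Cdsn and Angptl6 up on the soft matrix and down on the stiff matrix, and Acox2 down on both. In Soft-TW against Soft, Angptl6 rose by 1.07 ± 0.0833 on the log2 scale (edgeR adjusted p = 6.37e-22), Cdsn by 0.82 ± 0.0465 (adjusted p = 2.05e-31) and Tenm4 by 0.59 ± 0.0813 (adjusted p = 6.03e-10). Acox2 was lower, at -0.43 ± 0.179 (adjusted p = 0.0323). This last call is not firm: without Soft replicate 1 the log2 fold change was -0.37 (adjusted p = 0.122), without Soft-TW replicate 2 it was -0.26 (adjusted p = 0.279), and by DESeq2 the adjusted p was 0.0664. Of all genes tested, 28.9% were called higher and 28% lower in this comparison, so a call by itself is common here. No libraries of the 4 genes overlapped, as for 63.6% of all genes.

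In Stiff-TW against Stiff all 4 genes fell, by 2.82 on the log2 scale for Acox2 (SE 0.131, edgeR adjusted p = 1.02e-38), 2.62 for Tenm4 (SE 0.0541, adjusted p = 1.34e-70), 1.25 for Cdsn (SE 0.0355, adjusted p = 1.46e-57) and 0.39 for Angptl6 (SE 0.0663, adjusted p = 1.33e-07). In fold terms Acox2 was 7.06-fold and Tenm4 6.13-fold lower with TW, and Angptl6 1.31-fold. Called lower were 34.1% of all genes, and 71.2% had groups without overlap, as all 4 genes had. By size of fall among the 12245 genes, Acox2 had rank 13, Tenm4 16, Cdsn 139 and Angptl6 1924. Across all genes, 135 (1.10%, and 85 genes by DESeq2) were called higher with TW on the soft matrix and lower with TW on the stiff matrix, and Tenm4, Cdsn and Angptl6 were 3 of them. Among the 172 genes raised at least 2-fold on the stiff matrix, 20 (11.6%) had this pattern. A choice on Stiff against Soft favours falls against Stiff and rises against Soft, so these p-values and ranks are not free of the choice. The difference in response between the matrices was not tested, since it contains contrasts counted as used for the choice.

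Set against each other on one matrix, mito and TW groups differed for 3 genes each. On the soft matrix Soft+mito was lower than Soft-TW by 1.57 on the log2 scale for Tenm4 (SE 0.0954, edgeR adjusted p = 3.82e-29), by 1.90 for Cdsn (SE 0.0547, adjusted p = 1.36e-56) and by 1.75 for Angptl6 (SE 0.0923, adjusted p = 6.74e-34). Acox2 overlapped, at -0.24 ± 0.200 (adjusted p = 0.301). In this comparison 30% of all genes were called lower and 61.5% had groups without overlap. On the stiff matrix Stiff+mito was above Stiff-TW, by 2.20 ± 0.142 on the log2 scale for Acox2 (adjusted p = 1.97e-27), 2.10 ± 0.0579 for Tenm4 (adjusted p = 1.67e-58) and 0.86 ± 0.0370 for Cdsn (adjusted p = 3.46e-41). Angptl6 was at 0.11 ± 0.0686 (adjusted p = 0.164), with overlapping libraries, and without Stiff-TW replicate 2 it was at 0.18 (adjusted p = 0.0403). Here 30.2% of all genes were called higher and 64.3% had no overlap.

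**Figure D3:**
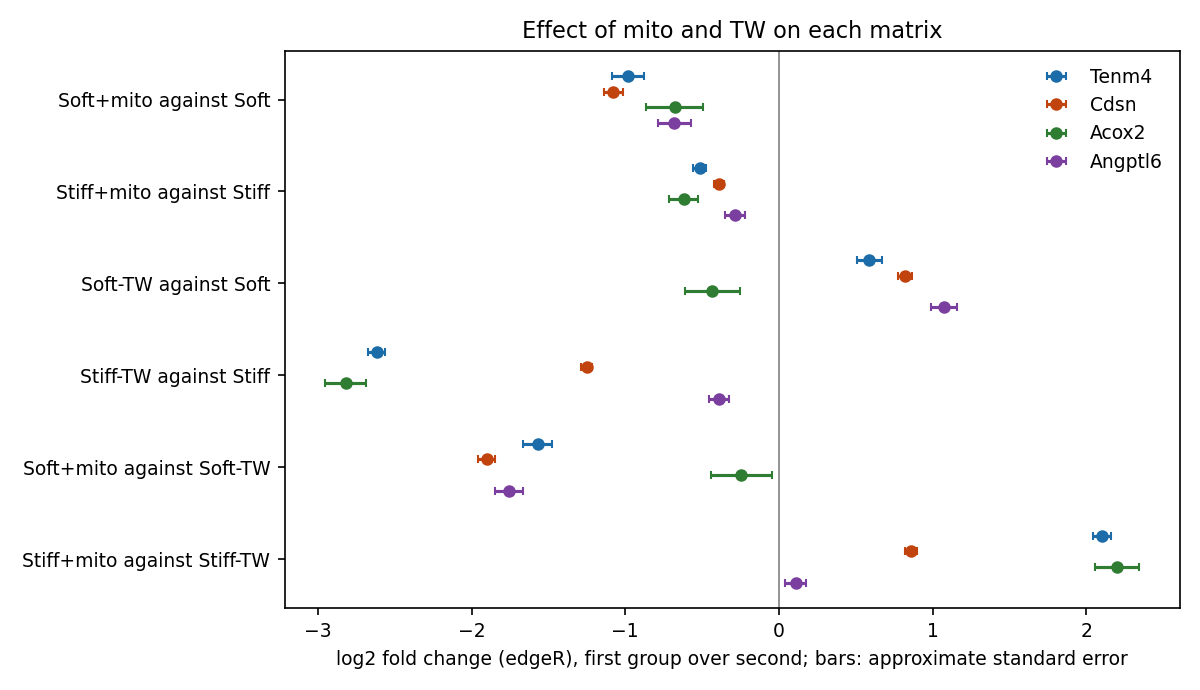
Log2 fold change of the 4 genes in the 6 tested comparisons of mito and TW. Points are fitted values and bars approximate standard errors. Mito lowers all 4 on both matrices, and TW raises Tenm4, Cdsn and Angptl6 on the soft matrix and lowers all 4 on the stiff matrix.

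Transcripts were compared within the authors' transcript table, whose estimates divide reads shared between isoforms. For Cdsn, 1 curated RefSeq transcript of the 2 in the table held 99.8% of the estimated counts, and for Acox2 1 of 3 held 88.3%. For Angptl6, 1 predicted transcript of 3 held 83.1%. Tenm4 reads were spread over 42 RefSeq transcripts, 39 of them predicted, and its top transcript held 11.1% and the top 5 held 38.7%. The Angptl6 curated transcript made up 29.2 to 31.9% of the gene in the Soft+mito libraries, 12.5 to 22.8% in Soft and 11.0 to 16.3% in Soft-TW. On the stiff matrix it made up 8.76 to 10.7% in Stiff, 12.1 to 25.9% in Stiff+mito and 16.5 to 19.4% in Stiff-TW. The share was thus lower in Stiff than in Soft but higher in Stiff-TW than in Soft-TW. Neither pair overlapped, but the TW shares nearly met, at 16.3% and 16.5%. They rest on 31.0 to 50.9 estimated counts per library in Soft-TW and 51.8 to 62.9 in Stiff-TW. How often the shares of other transcripts separate in this way was not examined. Summed over the 3 libraries, that transcript held 78.2 estimated counts in Soft and 85.9 in Soft+mito, while the main predicted transcript went from 361 to 189. The transcript shares carry the uncertainty of the estimation, for which the files give no error.

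Levels of the 4 genes across the 18 libraries were related to one another to differing degrees. On log2 CPM, Pearson's r was 0.957 for Cdsn and Angptl6, 0.949 for Tenm4 and Cdsn and 0.936 for Tenm4 and Acox2, but 0.611 for Acox2 and Angptl6. These are descriptions, as the 18 libraries are 6 groups of 3 and share the contrasts counted as used for the choice. Outside the 4 genes, those with the most similar levels to Tenm4 were Trib3 (r = 0.985), a stress-induced pseudokinase, Lonp1 (0.980), a protease of mitochondria, Agap1 (0.980), Pla2g4a (0.975) and Nr1d2 (0.970). For Acox2 they were Cyb5r1 (0.992), the tRNA synthetase genes Wars (0.990) and Eprs (0.982), and then Tmem260 (0.982) and Acot2 (0.979). Nearest to Cdsn were Aldh1l2 (0.994), a folate enzyme of mitochondria, Sybu (0.976), Sema4d (0.972), Mtm1 (0.971) and Slc25a37 (0.968). For Angptl6 they were Gtpbp2 (0.990), Mtm1 (0.978), Tef (0.976), Aldh1l2 (0.975) and Slc25a37 (0.972), so Cdsn and Angptl6 shared Mtm1, Aldh1l2 and Slc25a37.

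**Figure D4:**
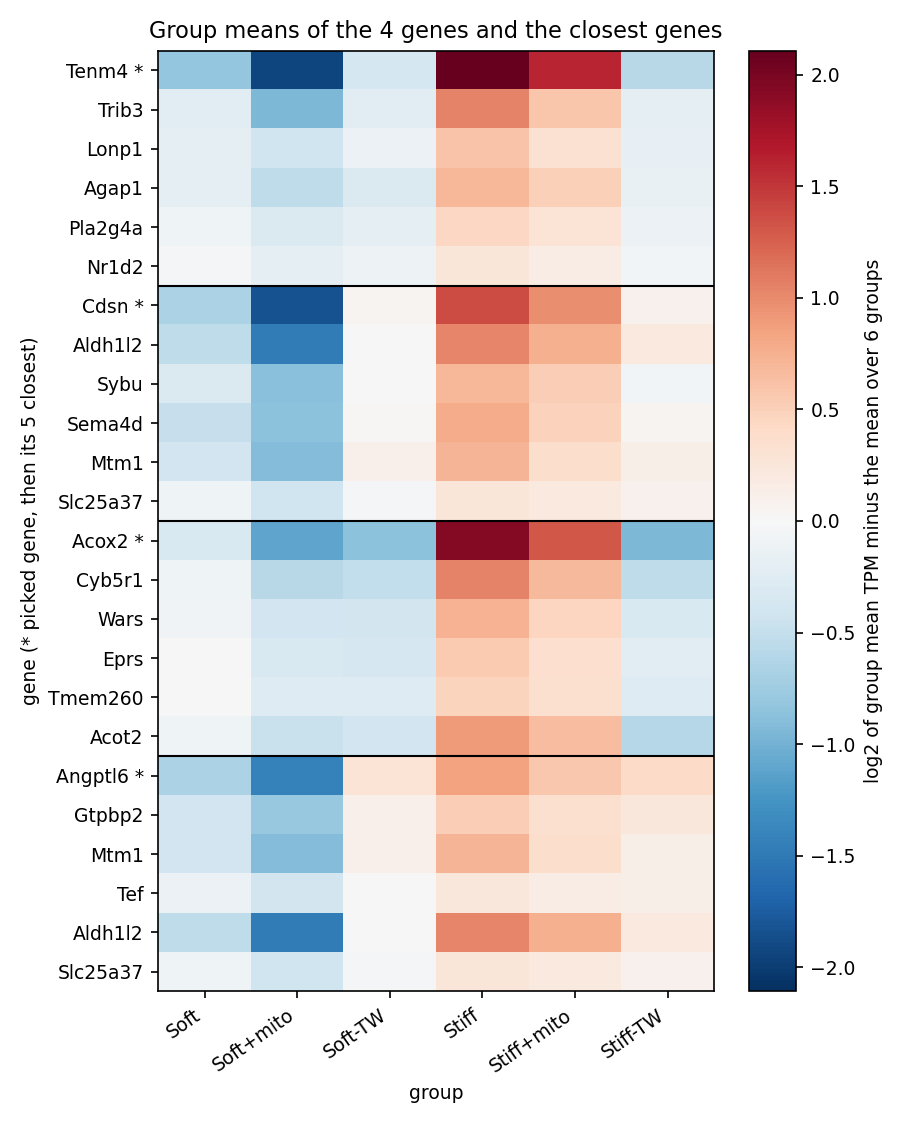
Heat map of each of the 4 genes (asterisk) and the 5 genes whose levels were most similar to it, with the 6 groups as columns. Colour is log2 of the group mean TPM minus the gene's mean over the 6 groups, red above and blue below it, and the darkest red of all is Tenm4 in Stiff.

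Genes listed as relatives or partners of the 4 genes moved in both directions between the matrices. Of 8 teneurins, teneurin partners and relatives tested (of 14 listed), 3 were called higher and 2 lower in Stiff than in Soft, at a median log2 fold change of 0.07, while the median of all 12245 genes was 0.01. Without Soft replicate 2, and with DESeq2, 3 of the 8 were called. Tenm3, the one other teneurin tested, was higher by 0.22 on the log2 scale, the latrophilin receptor Adgrl1 by 0.34, and Unc5b was lower by 0.68. Of 10 corneodesmosome and cornified envelope genes (of 37 listed), 2 were higher and 3 lower, at a median of -0.22. Sprr1a, a cornified envelope protein, was lower by 2.13 on the log2 scale, Jup by 0.50, and Ppl was higher by 0.29. Of 21 peroxisomal beta-oxidation genes (of 24 listed), 5 were higher and 4 lower, at a median of -0.01, and with DESeq2 3 were higher and 2 lower. Acox3, another branched-chain oxidase, was at 0.00 (edgeR adjusted p = 0.996). Of 16 peroxisome assembly genes, 3 were higher and 2 lower. Of 6 angiopoietin, angiopoietin-like and receptor genes (of 16 listed), 1 was higher and 5 lower, at a median of -0.15. The angiopoietin and angiopoietin-like genes tested were all lower, Angptl2 by 0.24, Angptl4 by 0.38 and Angpt2 by 1.37. The higher gene was the integrin Itgb1, by 0.06. In this comparison 53.8% of all genes were called in either direction.

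The Ddit3 and Atf4 stress axis, of which Tenm4 is a described target, did share the rise. Of 23 of its genes tested (of 26 listed, the 4 genes not among them), 22 were called higher and 0 lower in Stiff than in Soft, at a median log2 fold change of 0.68. Over all genes tested, 29.1% were called higher and 53.8% in either direction, at a median of 0.01. Car6, which like Tenm4 was described as downstream of Ddit3, rose from 7.55 ± 1.34 TPM (SD, n = 3) in Soft to 36 ± 1.10 in Stiff, Cth by 1.71 on the log2 scale, Aldh1l2 by 1.61 and Trib3 by 1.34. In Stiff-TW against Stiff 20 of the 23 were lower and 2 higher, at a median of -0.87, where 69.6% of all genes were called in either direction. Mito lowered 15 of them on the soft and 18 on the stiff matrix, against 2 and 1 that were raised, beside 26.7% and 33.5% of all genes called in either direction. In Soft-TW against Soft 9 were higher and 12 lower, at a median of -0.24, beside 56.9% of all genes called in either direction. Ddit3 itself moved in the same direction as Tenm4 in 4 of these 5 comparisons. Its log2 fold change by edgeR was 0.42 in Stiff against Soft (adjusted p = 7.28e-17), -0.35 in Soft+mito against Soft (adjusted p = 1.42e-10), -0.90 in Stiff+mito against Stiff (adjusted p = 2.48e-36) and 0.54 in Soft-TW against Soft (adjusted p = 2.01e-23). In Stiff-TW against Stiff the directions differed, as Ddit3 went from 213 to 267 TPM (log2 fold change 0.42, edgeR adjusted p = 1.57e-19), where Tenm4 fell by 2.62. The directions of Ddit3 and Tenm4 also differed in Stiff+mito against Soft+mito, at log2 fold changes of -0.13 and 3.48. The same held in Stiff+mito against Stiff-TW (-1.32 and 2.10) and in Stiff-TW against Soft-TW (0.31 and -0.19). In Soft+mito against Soft-TW both were lower (-0.89 and -1.57). This list was chosen with earlier results of these data known and is not independent evidence of its direction.

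**Figure D5:**
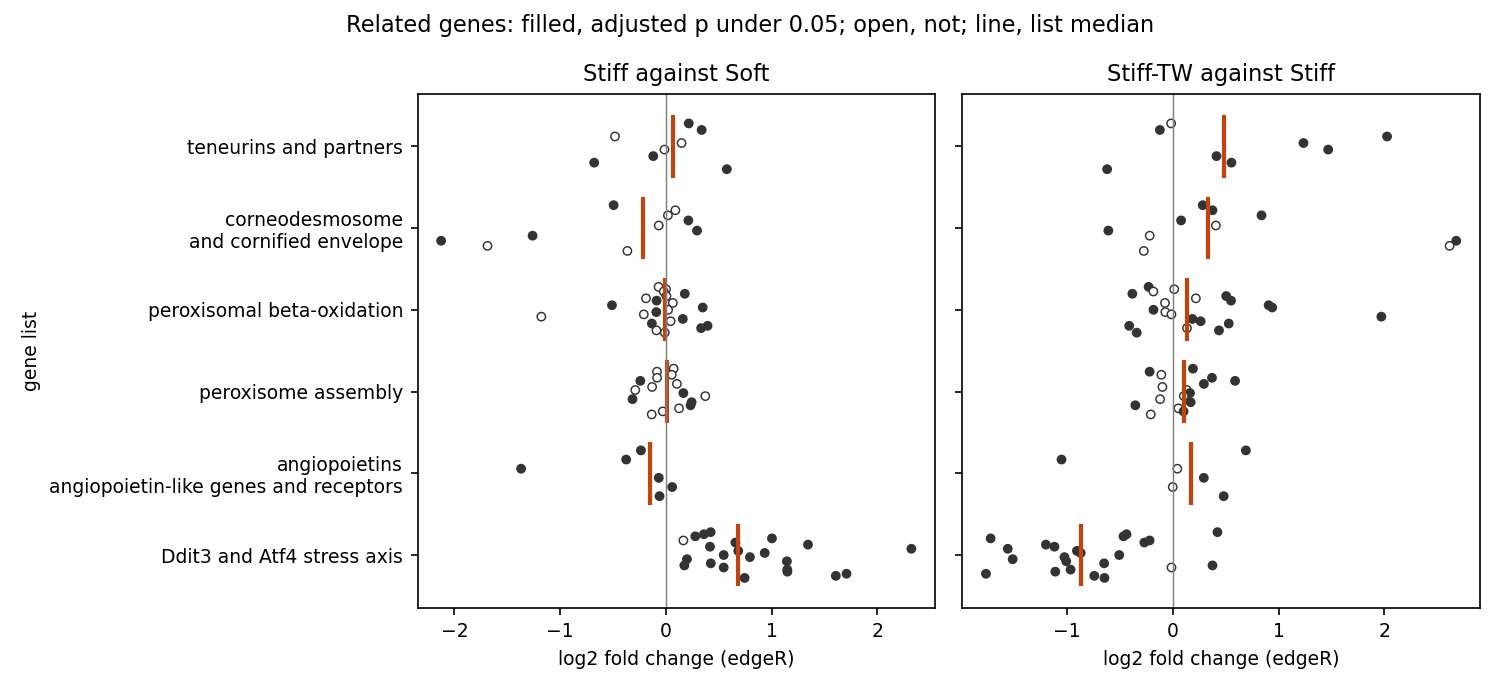
Log2 fold change of every tested gene of the 6 lists, in rows, for Stiff against Soft and for Stiff-TW against Stiff. Filled points passed an adjusted p of 0.05, open points did not, and the line is the list's median, which for the Ddit3 and Atf4 stress axis is 0.68 and -0.87.

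The tested genes beside the 4 in the genome did not rise to the same degree on the stiff matrix. Nars2, 39745 bases beyond Tenm4, was at a log2 fold change of 0.25 (edgeR adjusted p = 0.00071), and Vars2, 98453 bases beyond Cdsn, at 0.27 (adjusted p = 8.87e-05). Kctd6, 1923 bases from Acox2, was at 0.10 (adjusted p = 0.196) and Ppan, 8352 bases from Angptl6, at 0.10 (adjusted p = 0.0974). Psors1c2, 8453 bases from Cdsn, had a mean of only 0.447 CPM. It was at a log2 fold change of -0.37 (adjusted p = 0.448). Further off or on the other side, Gm15501 was at 0.24, Ptprg at 0.25 and Col5a3 at -0.03.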

How the data were processed

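RNA of 18 libraries, 3 in each of 6 groups taken from the labels, was selected for poly(A) and sequenced as strand-specific paired ends, per the labels' protocols. The genome build is mm10, per the submitters' processing notes, and which aligner, counting tool and annotation were used was not given in the sources used here. Gene and transcript tables deposited by the authors hold estimated counts, of which 10.9% per gene were not whole at a tolerance of 0.001, and TPM, scaled by the authors to a common sum per library. A further 160 columns, of group averages or of other measures, stayed unused. Matching by gene identifier found 99.2% of genes in RefSeq's annotation of GRCm38.p6, from which positions were taken.

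After rounding the estimated counts, filterByExpr of edgeR 4.0.16 (R 4.3.3) left 12245 of 18397 genes. Libraries were scaled by TMM (factors 0.968 to 1.03), and edgeR's quasi-likelihood fit used all 18 libraries, each group having its own mean. F-tests were two-sided, with Benjamini-Hochberg adjustment over all genes tested and a threshold of 0.05. The script was tested on simulated data. The 6 comparisons of mito and TW within a matrix were tested for the 4 genes, and the 3 comparisons between matrices were described only. Standard errors are approximate, from the size of the log2 fold change and its F statistic. Correlations used log2 CPM with a prior count of 2.

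The 4 genes and the gene lists were chosen with earlier results of these data known. Beside the 4 genes, the text names up to 4 genes per list of largest difference between Stiff and Soft (adjusted p under 0.05, mean of at least 1 CPM), the 5 genes with the highest correlation to each (mean of at least 5 CPM, predicted symbols passed over) and the nearest tested gene on each side. Ddit3, Acox3, Itgb1, Shfl and Mir708 fall outside this rule and were chosen after their values were seen. Alternatives were DESeq2 1.42.0, its size factors, library totals, no filter, only the compared groups, a replicate block and leaving out each library.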

Additional observations from a re-analysis of the deposited data

Results flagged for a closer look

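TW moved 3 of the 4 genes in opposite directions on the matrices, with all 3 TW libraries above those of Soft and all 3 below those of Stiff. For Tenm4 the log2 fold change was 0.59 on the soft matrix and -2.62 on the stiff matrix. For Cdsn it was 0.82 and -1.25, and for Angptl6 1.07 and -0.39. A choice on Stiff against Soft favours both a rise against Soft and a fall against Stiff. The difference in response between the matrices was not tested, since it contains contrasts counted as used for the choice.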

How the results depend on the processing

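For the 4 genes, every tested comparison kept its direction and its side of the threshold under the alternatives tried, apart from Acox2 in Soft-TW against Soft and Angptl6 in Stiff+mito against Stiff-TW. Acox2 in Soft-TW against Soft was at -0.44 with DESeq2 (adjusted p = 0.0664) and at -0.43 with only the compared groups in the fit (edgeR adjusted p = 0.0528), and between -0.58 and -0.26 with a library left out. Angptl6 in Stiff+mito against Stiff-TW was at 0.16 with library totals (edgeR adjusted p = 0.0407), and between 0.061 and 0.18 with a library left out. The described difference of Acox2 between the matrices with TW turned to 0.085 without Soft-TW replicate 1 and to 0.00015 without Stiff-TW replicate 1, in a range from -0.24 to 0.085. The causes were not tested. Of the teneurins and partners, 3 were called in Stiff against Soft with DESeq2 and with library totals in place of 5, and between 3 (without Soft replicate 2) and 6 with a library left out, and of the peroxisomal beta-oxidation genes 5 with DESeq2 in place of 9. Library totals moved the share of higher calls over all genes from 55.5% to 38.3% in Soft+mito against Soft, from 50.8% to 38.6% in Soft-TW against Soft and from 54.1% to 44.1% in Stiff against Soft. With the replicate number as a block, Acox2 in Soft-TW against Soft was at -0.43 (edgeR adjusted p = 0.0328), no call of the 4 genes changed, and 3354 genes were called in Soft+mito against Soft in place of 3274. Libraries with the same number did not deviate together (r from -0.108 to 0.197), so the numbers were not taken as pairs. Depth limits Acox2 most, with as few as 26 counts in a library.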
